A study of Zea mays with 56 samples.

Results

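Large insertion sectors are sites at which a new Mu insertion passed a set abundance in a leaf or a root. In kernel endosperm and pollen libraries of sufficient depth it stayed under that abundance. They were chosen by measured abundance. The abundance of a site is its count divided by the reference level of the library, which is the median count over the 28 sites that reached 10 counts in all 50 undiluted libraries. A sector had 0 counts in the Mu-inactive leaf libraries, at least 10 counts and an abundance of 0.01 or more in an undiluted leaf or root library, and an abundance under 0.01 in each of the 25 endosperm and pollen libraries with a reference level of 1000 or more. This held for 1016 of 2253850 sites, or 0.0453% of the 2241836 sites with 0 Mu-inactive counts.

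MuSeq2, which amplifies and counts the junctions between Mu ends and the genome, was run on maize DNA. The plants followed were labelled W22 MuActive, from a Mu-active father and a Mu-inactive mother, and both parents were of the W22 inbred background. V2 seedling leaf came from 6 plants (8 libraries), primary root from 6 plants, pollen of mature plants from 14 plants (15 libraries), and endosperm, chipped from the kernel before it was sown, from 17 plants. The background came from leaf of 3 plants of the Mu-inactive mother line, harvested at the V2 stage (4 libraries), and 6 more libraries were mixes of leaf DNA of plant 79 or 83 with DNA of Mu-inactive leaf. All leaf and root plants were of family ND58, as were the others except plants 42 and 52 of family ND67, which gave endosperm and pollen, and the Mu-inactive plants of family ND59. Plants 74 and 75 gave both leaf and root. The endosperm labels of plants 61 and 74 add B73 MuKiller to W22 MuActive, MuKiller being a locus known to silence the autonomous Mu element, but the root, leaf and pollen labels of these plants name W22 MuActive only. Some labels conflict: the title of the second leaf 75 library names plant 76, the title of pollen 99 names plant 85, and the description of pollen 69 names family ND67. These libraries were kept under the plant number of their library name.

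Mu elements are DNA transposons that move when the transposase of the autonomous member is made, and they duplicate 9 bp of target DNA as they insert. A somatic insertion is passed on to all descendants of the cell in which it happened, so that the share of a tissue that carries it depends on how many cells of the sample descend from that cell. Leaf and pollen trace back to the shoot meristem, the primary root to the root meristem of the same embryo, and the endosperm to a separate fertilisation in the same kernel.

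Reference levels ran from 8618 to 23714 in leaf libraries and from 8704 to 35519 in root, so the lowest count of any sector in its own tissue, with technical libraries of a plant summed, was 87. Endosperm had levels of 767.5 to 29232 and pollen of 69 to 7022, and 6 of 15 pollen libraries lay under 1000. A floor of 3 counts was an abundance of 8.45e-05 to 0.000348 in leaf and root, but of up to 0.0435 in pollen. Floors and intervals here cover counting error only, since reads of a PCR product need not come from separate molecules. Each tissue sample holds cells of several types, so the number of cells with an insertion and the Mu copies each contributes cannot be told apart.

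Of the 1357 sites at 0.01 or more in leaf or root, 68 had a Mu-inactive count and 273 others were over the limit in endosperm or pollen. Among the 1016 sectors, 1000 were at 0.01 or more in the mean of the technical libraries of a plant and 16 in a single technical library only. The 1000 gave 1008 pairs of a sector and a plant's tissue, 445 in leaf and 563 in root, and the counts that follow use these pairs. Of the 1016 sectors, 1008 spanned 9 bp from border to border, as did 99.994% of all sites, so other spans were more frequent among sectors. On scaffolds lay 0 sectors, a count not set against other sites. The combined count of 18 sectors was not the sum of both borders but 2 times the larger one, which gives a higher abundance than the sum. Among all 2253850 sites the combined count was not the sum at 163, so such sites were far more frequent among sectors. In their own tissue, 14 sectors of leaf and 21 of root were read at a single border. Values at the threshold graded smoothly: the lowest leaf sectors had 0.01003 (plant 75) and 0.01005 (plant 79), and the sites just outside had 0.00999 (plant 79) and 0.00998 (plant 76). The lowest root sectors had 0.010004 (plant 69) and 0.010006 (plant 61), and the sites just outside had 0.00994 (plant 63) and 0.00993 (plant 61). Abundances in leaf and root, in endosperm and in the deeper pollen decided which sites are sectors, so comparisons of these are descriptions with no test.

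Leaf held fewer sectors per plant than root on average, but the numbers overlapped. Leaf had 113 sectors in plant 74, 59 in plant 75, 61 in plant 76, 37 in plant 78, 89 in plant 79 and 86 in plant 83. Root had 153 in plant 61, 96 in plant 63, 68 in plant 65, 94 in plant 69, 88 in plant 74 and 64 in plant 75. The mean was 74.2 ± 27.0 in leaf and 93.8 ± 31.9 in root (SD, n = 6 plants each), a difference of -19.7 that is smaller than either SD. In plants 74 and 75, where leaf and root came from the same plant, leaf had 10 more sectors than root on average.

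The median sector was more abundant in each root than in any leaf, by a narrow margin in some. The median sector abundance of leaf was 0.0148 in plant 74, 0.0153 in plant 75, 0.0157 in plant 76, 0.0149 in plant 78, 0.0152 in plant 79 and 0.0168 in plant 83. The median of root was 0.0213 in plant 61, 0.0182 in plant 63, 0.0169 in plant 65, 0.0175 in plant 69, 0.0170 in plant 74 and 0.0252 in plant 75. The highest leaf (0.01682) and the lowest root (0.01693) were close. The medians averaged 0.0154 ± 0.000741 in leaf and 0.0193 ± 0.00329 in root (SD, n = 6 each), a difference of -0.00390. Over plants 74 and 75 alone, with the plant as a block, the difference was -0.00607 and leaf was lower in both. It was smallest, at -0.00270, without plant 75.

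**Figure D1:**
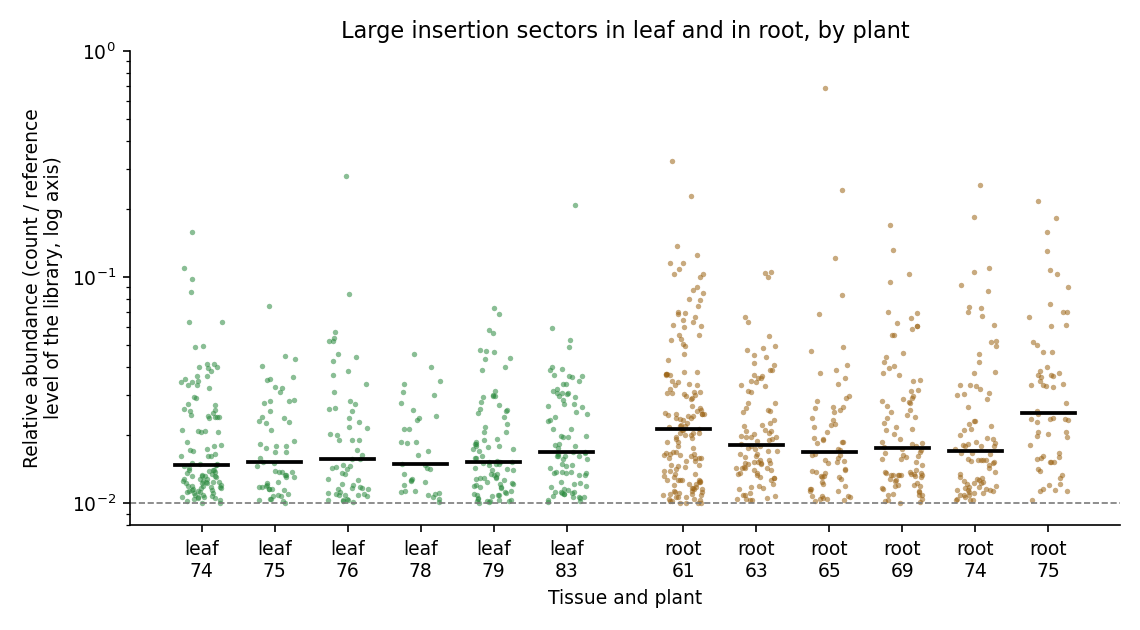
Relative abundance of every sector (points, log axis) in each leaf and root, with the median of each plant as a black bar and the threshold of 0.01 dashed. All 6 leaf medians lie below the 6 root medians, and abundances above 0.1 are more frequent in root.

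Larger abundances made up a higher share of root sectors. Abundances of 0.02 or more made up 161 of 445 leaf sectors (36.2%) and 266 of 563 root sectors (47.2%). Abundances of 0.05 or more were found in 20 leaf sectors and 82 root sectors, and of 0.1 or more in 4 and 28. As a mean over plants, the share at 0.02 or more was 36.2% ± 3.40 in leaf and 46.9% ± 11.1 in root (SD, n = 6 each). The difference of -10.7 percentage points is smaller than the SD of root, and it was -6.88 without plant 75.

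Inherited sites, taken as those at 0.1 or more both in the plant's endosperm and in the leaf or root compared, with 0 Mu-inactive counts, differed between the tissues too. Their median abundance was 0.568 to 0.731 in leaf and 0.637 to 0.986 in root. Expressed as a share of it, the median of the same sectors was 2.44% ± 0.146 in leaf and 2.39% ± 0.446 in root (SD, n = 6 each), which were close. With leaf and root brought to 1 level of inherited sites before the threshold was applied, a setting chosen after seeing the data, the medians differed by -0.00330 and the number of sectors turned to 10.3 more in leaf.

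The most abundant sectors read at both borders are named by their coordinates, which follow the build of the deposited tables. The largest leaf sector lay on chromosome 8 at 1768403 to 1768411 in plant 76, with an abundance of 0.280 (95% interval 0.268 to 0.291) from 1376 left and 1033 right border counts. It had 0 counts in the endosperm and pollen of plant 76, against floors of 0.000372 and 0.000654, but counts in 8 plants in all, among them 21 counts in pollen 52 (0.00544). The next 4 leaf sectors were all in plant 74. They lay on chromosome 10 at 101954337 to 101954345 (0.154 and 0.163 in the technical libraries), on chromosome 9 at 2589202 to 2589210 (0.111 and 0.109), on chromosome 6 at 166963081 to 166963089 (0.0998 and 0.0960) and on chromosome 6 at 148091882 to 148091890 (0.0878 and 0.0841). All 4 had 0 counts in the root and endosperm of plant 74. A site of abundance 0.208 in leaf 83 was left out of these because it was read at its right border alone.

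The largest root sector lay on chromosome 5 at 3855998 to 3856006 in plant 65, with an abundance of 0.682 (95% interval 0.666 to 0.698) from 3552 left and 3434 right border counts. That is 93.4% of the median inherited site of the same root. The endosperm of plant 65 gave 60 counts at it (0.00407). Next in root were chromosome 4 at 1210116 to 1210124 in plant 61 (0.325, interval 0.318 to 0.332), chromosome 2 at 22210275 to 22210283 in plant 74 (0.254, 0.244 to 0.265), chromosome 2 at 159132479 to 159132487 in plant 65 (0.242, 0.232 to 0.251) and chromosome 5 at 7575355 to 7575363 in plant 61 (0.228, 0.222 to 0.234). Of these 4, only the one in plant 74 had a count in the plant's own endosperm, a single count, and 2 counts in 1 of the leaf 74 libraries. Which genes lie at these sites was not analysed here. On the library total as scale, or with 1 border table alone, these 10 abundances moved beyond their counting intervals in most settings. The largest root sector ranged from 0.682 to 0.865 over them, and the largest leaf sector from 0.280 to 0.339.

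The sectors were recovered from repeat libraries, which also took part in the choice of members, and from diluted DNA, which did not. Of 126 sectors in either leaf 74 library, 101 were at 0.01 or more in both (80.2%), and of 62 in either leaf 75 library, 50 were (80.6%). Over the sectors of the technical mean the log2 ratio of the second library to the first had a median of 0.04 and an SD of 0.20 in leaf 74, and a median of 0.09 and an SD of 0.20 in leaf 75. Of the 58 sectors in the leaf 75 library whose title names plant 76, 50 were at 0.01 or more in the other leaf 75 library and 0 in leaf 76.

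All 89 sectors of leaf 79 and all 86 of leaf 83 kept at least 1 count at each dilution. The summed abundance of the leaf 79 sectors was 1.82 undiluted, and 0.920, 0.188 and 0.0830 at 1 in 3, 1 in 10 and 1 in 30. For leaf 83 it was 2.01 undiluted, and 0.737, 0.226 and 0.0609. These are 50.4%, 10.3% and 4.55% of the undiluted sum in leaf 79 and 36.7%, 11.2% and 3.03% in leaf 83, where the dilution itself gives 33.3%, 10% and 3.33%. Leaf 79 departed most from the dilution: the quartiles of its single sectors were 46.6% and 53.9% at 1 in 3 and 3.74% and 5.46% at 1 in 30, all above the share of Mu-active DNA. Sectors of other plants with 0 counts in the undiluted leaf were seldom seen after dilution, in 46, 9 and 8 of 708 for leaf 79 and in 24, 10 and 3 of 693 for leaf 83. This is in part built in, since they were picked for 0 counts in the undiluted library of the same leaf. With 2 plants no test was made.

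**Figure D2:**
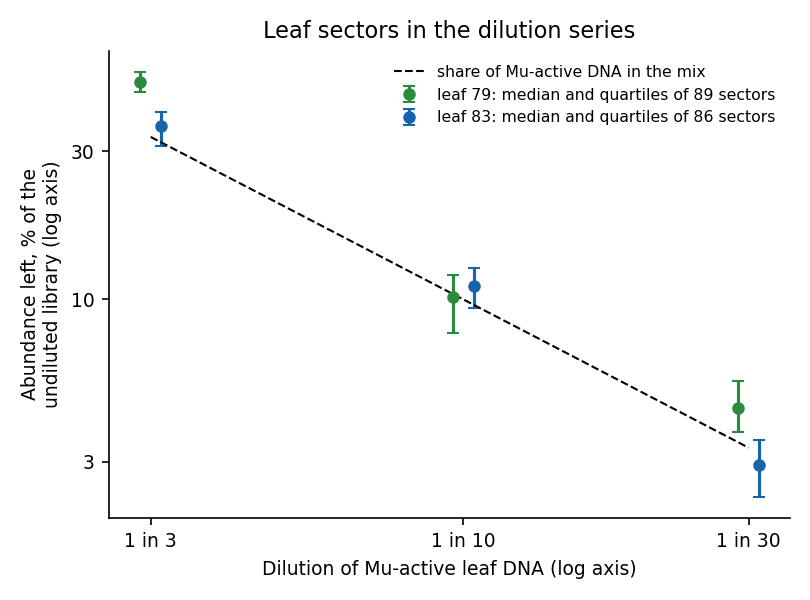
Abundance left in the diluted libraries, as a percentage of the undiluted library, against the dilution (both axes log). Points are medians over 89 sectors of leaf 79 and 86 of leaf 83, bars their quartiles, and the dashed line is the share of Mu-active DNA in the mix. Quartiles span the line except for leaf 79 at 1 in 3 and 1 in 30, where the medians of 50.0% and 4.48% lie above it.

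Leaf and root of the same plant shared no sector. In plant 74, 0 of 113 leaf sectors and 88 root sectors were at 0.01 or more in both tissues, and in plant 75, 0 of 59 and 64. Sites over the limit in endosperm or pollen, among them the inherited ones, were left out beforehand. How many of those reached 0.01 in both tissues was not counted. Traces in the other tissue were rarer for leaf sectors than for root sectors, but this was not particular to sectors. Among all other sites, 0.578% of leaf sites had a count in the own root and 23.1% of root sites in the own leaf. Of the leaf sectors, 0 of 113 had a count in root 74. In root 75, 1 of 59 had a single count, and together this is 0.581%. In roots of other plants these 172 sectors had a count in 4.30% of pairs. Roots 74 and 75 had the lowest reference levels of the roots, 8704 and 9404, against up to 35519. At a reference level of 1000 the expected share of leaf 74 sectors was 0% in the own root and 0% to 0.911% in the 5 others. For leaf 75 sectors it was 0.180% and 0.195% to 2.54%. The own root was thus level with the lowest other root for plant 74 and just under it for plant 75. Among sites at 0.001 to 0.01 in these leaves, 3.01% had a count in the own root, and among all other sites 0.578%.

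Root sectors were seen more often in leaf, as were other root sites. In the own leaf 37 of 88 root 74 sectors and 28 of 64 root 75 sectors had a count, together 42.8%. These 152 sectors had a count in 19.2% of pairs with the leaf of another plant. The background in the own leaf was 28% for sites at 0.001 to 0.01 in these roots and 23.1% for all other root sites. The own leaf of plants 74 and 75 has 2 libraries, so depth was made equal: at a reference level of 1000 the expected share was 5.43% in the own leaf and 2.05% to 2.71% in the 5 other leaves for root 74, and 2.87% and 2.06% to 3.01% for root 75. The share in the own leaf was thus above every other leaf in plant 74 and inside their range in plant 75.

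The amounts were small. Summed over the 88 root 74 sectors, the abundance was 0.00958 in leaf 74 and 0.00191 to 0.00257 in the other leaves, against 2.68 in root 74 itself. A single sector gave 0.00560 of this, and the rest summed to 0.00398. Summed over the 64 root 75 sectors it was 0.00193 in leaf 75 and 0.00143 to 0.0168 in the other leaves. The leaf with the highest sum for root 75 was that of plant 79, where 1 site was itself a sector. With 2 plants no test was made.

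The limit on endosperm and pollen is part of how sectors were chosen, and it bears on what could be seen there. It reached 16 of 17 endosperms but only 9 of 15 pollen libraries. Among the 6 plants with leaf sectors only pollen 76 (reference level 4586) was under the limit. Pollen of plants 74 (698.5), 75 (451), 78 (677), 79 (164.5 over 2 libraries) and 83 (293) was not, so that a sector could exceed 0.01 there and not in the deeper pollen of other plants, and part of any excess in own pollen is built in.

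Leaf sectors had a summed abundance in the pollen of their own plant of 0.119 in plant 74, 0.01996 in plant 75, 0.00392 in plant 76, 0.00148 in plant 78, 0 in plant 79 and 0.0171 in plant 83. The mean over the pollen of other plants was 0.00424 for the sectors of plant 74, 0.0133 for 75, 0.00600 for 76, 0.00279 for 78, 0.00837 for 79 and 0.00548 for 83. Own pollen was higher for 3 of 6 plants, and for plants 74 and 83 it exceeded every other pollen sample. The rank of plant 83 rests on few counts: 3 of its sectors had a count in pollen 83, where a single count is 0.00341. The highest other pollen gave 0.0142 for these sectors. Own minus other averaged 0.0202. It was 0.00128 without plant 74 and 0.00396 without 1 sector of that plant, but 0.123 on library totals, 0.143 at a threshold and limit of 0.02, 0.137 in the left border table and 0.114 with the limit in own libraries only. In pollen of levels under 1000, which the rule did not use, a comparison chosen after seeing the data, own averaged 0.0315 and other pollen 0.00667 over 5 plants, and the difference of 0.0248 was within the spread between plants (two-sided exact sign-flip test, p = 0.4375, where 5 plants allow p = 0.0625).

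That sector is the one on chromosome 6 at 166963081 to 166963089. It had 403 left and 517 right border counts in the first leaf 74 library (0.0998), 399 and 429 in the second (0.0960), and 34 left and 34 right border counts in pollen 74 (0.0974). Its abundance in pollen was thus as high as in the leaf. Root 74 and endosperm 74 had 0 counts, against floors of 0.000345 and 0.000283, and so did all 41 undiluted libraries of other plants. A second sector of plant 74, on chromosome 1 at 4655014 to 4655022, had 146 and 118 counts in the leaf libraries and 7 counts in pollen 74 (0.01002), all at the left border, and 0 counts in every other plant. These were the 2 leaf sectors of 445 at 0.01 or more in own pollen, and both lay in a pollen library outside the limit.

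By counts of sectors, leaf sectors were not detected more often in own pollen than in other pollen. A count was found for 18 of 445 in own pollen (4.04%) and in 7.69% of pairs with the pollen of other plants, much of which was deeper. The background in own pollen was 4% for sites at 0.001 to 0.01 in the leaf and 1.05% for all other leaf sites. Pollen 79 had a count at 0 of 89, with a floor of 0.0182 for 3 counts at 1 site. For root sectors, 6 of 246 had a count in own pollen (2.44%, in plants 69, 74 and 75) and 5.82% of pairs of the same sectors with other pollen did, with a background of 4.41% and 3.05%.

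The limit holds every sector under 0.01 in 16 of 17 endosperms, so low values in own and other kernels are built in. For leaf sectors the summed abundance in own endosperm was 0.00227 in plant 74, 0.00276 in plant 75, 0.000372 in plant 76, 0.00570 in plant 78, 0.0182 in plant 79 and 0.00796 in plant 83. The mean over other endosperms was 0.00329 for the sectors of plant 74, 0.00333 for 75, 0.00180 for 76, 0.00425 for 78, 0.00784 for 79 and 0.00520 for 83. Own was higher in 3 of 6 plants, and in plant 79 it was above all 16 others. The difference averaged 0.00193, and 0.000202 without plant 79. It turned to -0.0176 with the limit in own libraries only. A count was found for 62 of 445 sectors in own endosperm (13.9%) and in 13.9% of pairs with other endosperms, with a background in own endosperm of 19.6% for sites at 0.001 to 0.01 in the leaf and 7.02% for all others.

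For root sectors the summed abundance in own endosperm was 0.00884 in plant 61, 0.0134 in plant 63, 0.0122 in plant 65, 0.0173 in plant 69, 0.00151 in plant 74 and 0.000592 in plant 75. The mean over other endosperms was 0.00606 for the sectors of plant 61, 0.00551 for 63, 0.00245 for 65, 0.00474 for 69, 0.00289 for 74 and 0.00174 for 75. Own was higher in 4 of 6 plants, and in plants 65 and 69 it was above all 16 others. Sites read at 1 border gave part of these 2 sums: 0.00651 and 0.00372 in endosperm 69, both from doubled counts, and 0.00319 in endosperm 65. The difference averaged 0.00506. It was 0.00216 without the sites whose combined count is not the sum of both borders, and 0.00107 for sectors read at both borders. It turned to -0.0125 with the limit in own libraries only. A count was found for 103 of 563 in own endosperm (18.3%) and in 13.2% of pairs with other endosperms, against a background of 18.8% and 15.7%.

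**Figure D3:**
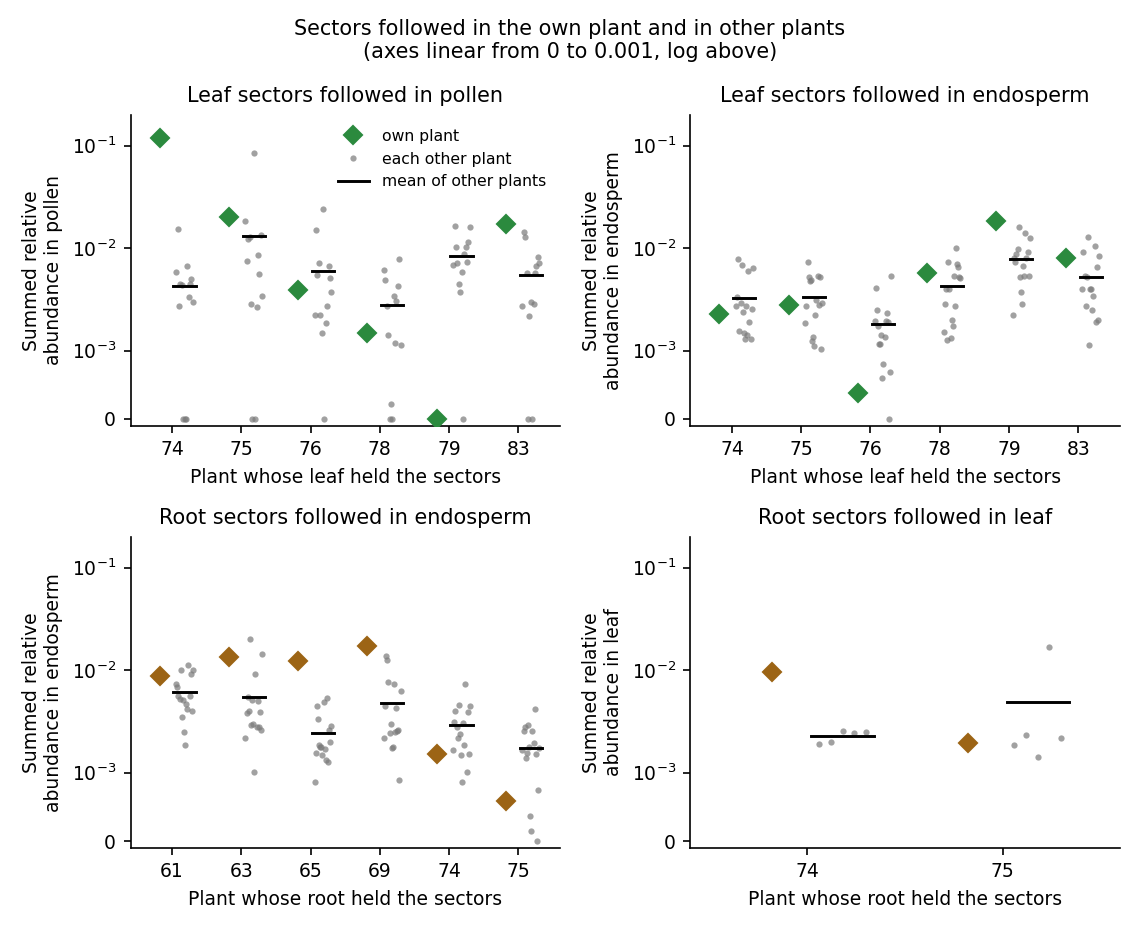
Summed relative abundance of the sectors of each plant in another tissue of the own plant (diamonds) and in the same tissue of each other plant (dots, mean as a bar); axes are linear from 0 to 0.001 and log above. The own plant lies above all other plants for leaf 74 (0.119) and leaf 83 (0.0171) in pollen, leaf 79 (0.0182), root 65 (0.0122) and root 69 (0.0173) in endosperm, and root 74 in leaf (0.00958). A single count in pollen 83 is 0.00341, and the endosperm sums of root 65 and root 69 include sites read at 1 border.

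Within a plant, leaf sectors summed to 0.0269 in pollen and 0.00621 in endosperm as means over 6 plants. Pollen was higher in 4 of 6 plants, by 0.0207 on average and by 0.00148 without plant 74. The limit held in the endosperm of all 6 plants and in the pollen of plant 76 only, so a higher sum in pollen is in part built in.

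The exact position of most sectors was also read in other plants, at far lower levels. A count in at least 1 other Mu-active plant was found for 663 of 1016 (65.3%), and 353 (34.7%) were read in 1 plant only. By tissue these were 267 of 445 in leaf and 390 of 563 in root, with means over plants of 61.3% and 68.4%. As background, 64.2% of sites at 0.001 to 0.01 in leaf and 61.4% in root had a count in another plant, and 53.1% and 56% of all other sites. Leaf sectors thus lay a little under the sites at 0.001 to 0.01 and root sectors above them, which was not tested. With 2 or more counts in a library of another plant the shares were 46.5% of leaf sectors against 51% of leaf sites at 0.001 to 0.01, and 52.2% of root sectors against 45.6% of such root sites. Counts in 10 or more plants were found for 160 sectors and in all 17 plants for 24.

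**Figure D4:**
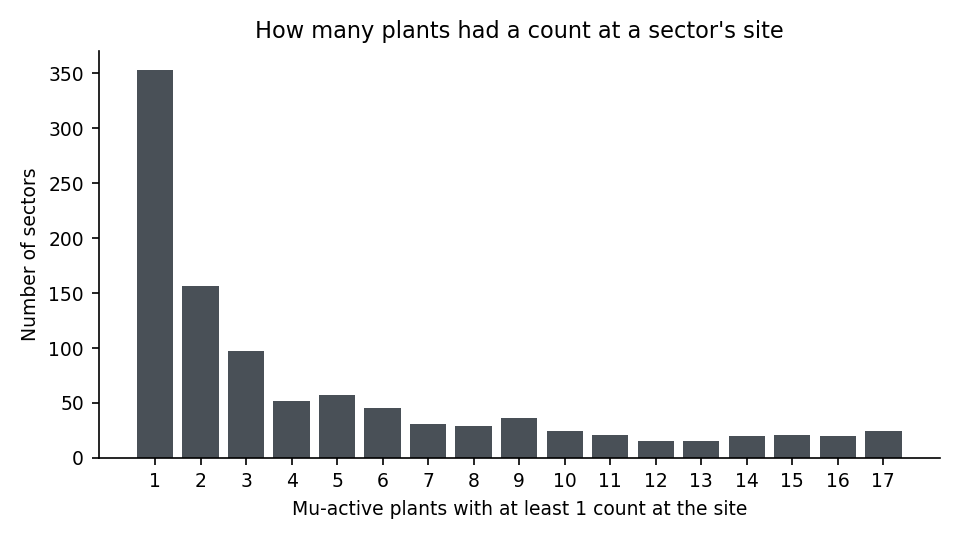
Number of sectors (bars) by how many of the 17 Mu-active plants had at least 1 count at the site, the own plant included. The largest class, 353 sectors, was read in 1 plant only, and 24 were read in all 17.

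Levels in other plants were low for nearly all sectors, in part by the rule, which holds them under 0.01 in endosperm and deeper pollen. Of the 1010 that reached 0.01 in 1 plant only, 166 (16.4%) reached 0.001 in a library of another plant with a reference level of 1000 or more, and 22 (2.18%) reached 0.005. Among those with a count in such a library, the highest abundance outside the own plant had a median of 0.000318. The abundance at home was 61.8 times as high at the median, which is in part built in, since 0.01 was required at home. At a reference level of 5000 the sectors of other plants would be seen in 10.9% ± 1.96 of cases in leaf (SD, n = 6), in 1.96% ± 1.07 in root (SD, n = 6) and in 9.12% ± 3.03 in endosperm (SD, n = 16), which was not tested. Root also read fewer other sites per plant in general, 5008 to 48566 against 75787 to 249328 in leaf, at unequal depth.

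By the combined count, only 6 sectors were at 0.01 or more in the leaf or root of more than 1 plant. They fell into 2 kinds by how the borders were counted. The combined count was the sum of both borders at 2 of them. The first lay on chromosome 4 at 18917653 to 18917661, with 129 left and 250 right border counts in leaf 83 (0.0161) and 215 and 302 in root 63 (0.0146), and counts in all 17 plants. The other lay on chromosome 2 at 160977596 to 160977604, with 138 and 128 in leaf 79 (0.0158) and 55 and 52 in root 75 (0.0114), and counts in 16 plants. At the other 4 the combined count was 2 times the larger border and nearly all reads came from 1 border. They lay on chromosome 6 at 169054275 to 169054283 (leaf 79 at 0.0465 and leaf 78 at 0.0455), on chromosome 8 at 20362589 to 20362597 (root 69 at 0.0658, root 63 at 0.0260 and leaf 79 at 0.0133), 4 bp from it at 20362585 to 20362593 (root 69 at 0.0445 and root 63 at 0.0144), and on chromosome 2 at 47365704 to 47365712 (leaf 79 at 0.0128, leaf 78 at 0.0112 and leaf 83 at 0.0105). The abundances of these 4 rest on the doubled count. At 47365704 leaf 79 had 108 left and 2 right border counts, counted as 216. On the sum of both borders, that site would lie under 0.01 in each leaf named. So would leaf 79 at 20362589 and root 63 at 20362585. The pair on chromosome 8 was also the highest of the sectors with 10 or more counts in own pollen of level 1000 or more (10 counts at 20362585 in pollen 69, 0.00676, the only such sector) and in own endosperm (84 counts at 20362589 in endosperm 69, 0.00651, the highest of 21). Both counts are 2 times the right border, which gave 5 in pollen 69 and 42 in endosperm 69.

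Most sectors were read evenly from both ends of the element. The median share of left border counts was 47.0% to 51.2% in the 6 leaves and 48.8% to 51.7% in the 6 roots. Left shares between 25% and 75% were found for 90.7% to 94.9% of sectors in leaf and for 86.2% to 94.8% in root. The most uneven ones had all counts at 1 border, such as 264 left and 0 right on chromosome 1 at 4655014 in leaf 74, and 0 left and 267 right on chromosome 1 at 207043874 to 207043882 in root 69.

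Along the genome the sectors were spread like other sites. The share of sectors on a chromosome was between 0.802 (chromosome 10) and 1.12 (chromosome 9) times the share of other sites. Sites within 10% of the span from a chromosome end made up 37.6% of sectors and 36.1% of other sites. Leaf and root sectors were alike in this, at 37.3% and 37.8%. Pairs within 1000 bp of each other held 70 sectors in 35 pairs, a count not made for other sites. In 2 pairs both sectors came from 1 root alone. By the combined count, the pair on chromosome 8 was held by roots 63 and 69 alike. The others joined sectors of different plants. Among these, the root 65 sector on chromosome 2 at 159132479 lay 86 bp from a sector of root 61.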

How the data were processed

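MuSeq2 junction counts of 56 libraries were used. Per the labels' protocols, a column kit gave the leaf and root DNA and a CTAB extraction the pollen and endosperm DNA, all DNA was sheared, and Mu junctions were amplified by PCR. The authors deposited raw junction counts by site as 3 tables, for the left border, the right border and both combined. The submitters' processing notes name Bowtie2, without a version. For the genome build, filters and any collapsing of molecules, nothing is given in the sources used here, so no gene context or sequence is given.

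Counts were divided by the reference level of the library, and technical libraries of a plant were averaged in leaf and root and pooled elsewhere. Plants were the replicates. Of 7 planned comparisons (exact permutation or sign-flip tests) only values and spreads are given, since the abundances that chose the members enter them. The p-value given, for pollen the rule did not use, measures the spread between plants. Numbers pair samples because a number is a plant in the labels: plants 74 and 75 gave leaf and root. Their few pairs allow no correlation. Intervals are 95% exact Poisson bounds of a count over the reference level. Shares at equal depth are expected shares after thinning. In the share of pairs, each sector is counted once for each other plant.

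The members, lists and tests were chosen with earlier results of these data known. Sites were named by a rule: the 5 highest in leaf and in root read at both borders, those at threshold in both tissues of 1 plant (there were 0), those in more than 1 plant, the 3 highest in own pollen and in own endosperm with 10 or more counts, those nearest the threshold and those with the most uneven borders. The sector on chromosome 1 at 4655014 in pollen was singled out after its values were seen. The calculation was tested on simulated data. Alternatives were the scale, the threshold, the border tables, the limit on endosperm and pollen, count minimums, technical libraries, plants left out and the block. Software was scipy 1.17.1, pandas 2.3.3, numpy 2.4.6 and matplotlib 3.10.9 under Python 3.11.15.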

Additional observations from a re-analysis of the deposited data

Results flagged for a closer look

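In groups of 6 plants, 3 of 15 values checked lay far from the other 5 by Dixon's criterion, which chance meets in about 5% of checks. Root 61 had 153 sectors, against 64 to 96 in the other roots, and a summed sector abundance of 5.29, against 2.41 to 2.68. These 2 values rest on the same sectors and are not separate. Root 61 also had 83 inherited sites, against 26 to 47 in the other roots, and the highest total count of the roots (3650060). The endosperm of plant 61 is labelled MuKiller. Leaf 74 sectors summed to 0.119 in own pollen, against 0 to 0.01996 for the other plants, and pollen 74 had a reference level of 698.5.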

How the results depend on the processing

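Depth limits pollen most: at a reference level of 69 a floor of 3 counts is 0.0435, and leaf sectors at equal depth in own pollen could not be given because only pollen 76 reached 1000. The number of sectors, leaf minus root, turned to 9.17 in the right border table, to 10.0 with the plant as a block and to 10.3 on the scale of inherited sites, and leaving out 1 plant gave -28.6 to -7.83. The difference of medians kept its sign in all 22 settings tried. It was -0.00483 at a threshold and limit of 0.02, -0.00398 in the left border table, -0.00344 with at least 100 counts, -0.00387 without the MuKiller-labelled plants, -0.00607 with the block, and -0.00438 to -0.00270 with 1 plant left out. The difference of the share at 0.02 or more was -13.7 on library totals, -15.4 in the right border table, -11.0 with the limit in own libraries only, -12.8 on the scale of inherited sites and -12.8 to -6.88 with 1 plant left out. With the limit in own libraries only, own minus other endosperm turned to -0.0176 for leaf sectors and to -0.0125 for root sectors. Leaving out 1 plant gave 0.00128 to 0.0272 for own minus other pollen, 0.000202 to 0.00244 and 0.00385 to 0.00625 for own minus other endosperm of leaf and root sectors, and 0.00148 to 0.0284 for own pollen minus own endosperm. Sectors at threshold in the technical mean numbered 1000, and 431 at a threshold of 0.02 and 646 without the MuKiller-labelled plants, by construction. The causes of the other changes were not tested.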
